A study of Homo sapiens with 6 samples.

Results

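The genes examined here encode the heterogeneous nuclear ribonucleoproteins (hnRNPs) and the core protein components of the spliceosome, together with a few auxiliary splicing regulators. They were taken from a list of 54 gene symbols, by name and not by a measured value, and each was matched to its row in the gene table by symbol. The list was nevertheless chosen with earlier results of these data known. A row was found for 53 of the 54 genes among the 74852 genes of the table, and SF3B2 was not analysed here. The 53 genes comprised 17 hnRNPs, 9 genes of branch point recognition and the U2 particle, 9 genes of the U1 particle and the Sm ring, 10 genes of the tri-snRNP and spliceosomal helicases, and 8 auxiliary regulators.

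The hnRNPs are abundant nuclear proteins that coat nascent transcripts and influence which exons are joined, how messengers are exported and how stable they are. The spliceosome is built anew on each intron from small nuclear ribonucleoproteins (snRNPs), in which a ring of Sm proteins holds the small nuclear RNA. U1 marks the start of the intron, SF1, U2AF and the U2 particle mark its branch point and end, and the tri-snRNP and a series of RNA helicases then bring the reacting sites together. Splicing factors are frequently altered in breast cancer, and several of these genes control their own levels through alternative exons.

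MDA-MB-231 is a human cell line of mesenchymal appearance derived from a triple-negative breast cancer (TNBC). The study asked how the transcriptome of these cells depends on NEK2, a mitotic kinase that is also found in the nucleus, and compared cells that received 4 pooled control siRNAs (si-CTRL) with cells that received 4 pooled siRNAs targeting NEK2 (si-NEK2), with 3 libraries per group. The sample records give 2 rounds of transfection and a harvest 24 h after the second, and the methods of the study count the harvest from transfection without naming the rounds. Unlike those of si-NEK2, the si-CTRL records refer to further sample records, and no source used here says if the groups were processed as a single batch. PolyA-selected RNA was sequenced, and the labels do not say whether the 3 libraries of a group came from separate cultures, so the p-values measure only the spread between these libraries. Each group rests on a single pool of siRNAs, and fewer cells with a transcript cannot be told apart from less transcript per cell.

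Each library held between 52625492 and 87454509 reads assigned to genes. NEK2 itself fell from 3438 ± 229 normalized counts in si-CTRL to 344.9 ± 54.4 in si-NEK2 (SD, n = 3 each), a log2 fold change of -3.32 with a standard error (SE) of 0.12, in the direction the labels give. The libraries had high counts of VIM, CD44, CAV1 and KRT18 and at most 15.2 normalized counts of ESR1, PGR, CDH1 and EPCAM, but ERBB2, which encodes HER2, was measured at 2455 to 4085. The 7 markers of blood, endothelial and liver cells summed to between 39.8 and 86.2 normalized counts per library. si-CTRL replicate 1 stood apart from the other controls. It lay above both of them for 36 of the 53 genes and below both for 15. Its difference from their mean ran from -0.94 (SNRPE) to 0.53 (HNRNPH1) on the log2 scale. The median deviation was -0.47 for the 5 genes with a longest coding transcript under 1500 bases and 0.11 for the other 48, and the results below are therefore given with and without this library where it matters. Across all 53 genes the Spearman correlation of this deviation with transcript length was only 0.08, and it was 0.18 across the 7531 abundant genes with a coding transcript, where genes of 1 library are not independent. The summed level of 12 proliferation genes was 0.985 times the control level in si-NEK2, with 4 of them higher and 3 lower by adjusted p. The log2 fold changes were 0.58 for CCNB1, 0.56 for CCNA2, 0.37 for CDK1 and 0.23 for PCNA. They were -0.39 for MCM5, -0.36 for MCM3 and -0.22 for MCM7, so the sum hides changes in both directions.

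The level of these genes was shifted little as a whole. A gene was called by limma with Benjamini-Hochberg adjustment over the 18717 genes tested, at an adjusted p of at most 0.05. In si-NEK2, 13 of the 53 genes rose and 2 fell by this test, that is 24.5% and 3.77%, beside 21.8% higher and 21.3% lower among all genes tested. All 53 are abundantly transcribed, with at least 1494 reads in each library, and among the 7995 genes that averaged 1000 normalized counts or more, 35.5% were higher and 18.8% lower. The share of higher genes was thus near the first background and below the second, and the share of lower genes was below both. Only HNRNPR, HNRNPA2B1 and HNRNPA0 passed the thresholds of the study, a p of at most 0.05 and a fold of at least 1.5. This was 5.66% of the genes, compared with 22.5% of all genes tested and 15.2% of those averaging 1000 or more. The groups of 3 libraries did not overlap for 27 of the 53 genes (50.9%), beside 55.0% of all genes.

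The median log2 fold change of the 53 genes was 0.11, beside 0.01 over all genes tested and 0.12 over the abundant ones. For 38 of them it lay within 0.25 of 0 on either side. Of the 38 genes that did not pass the test, 37 had a 95% interval that lay within 1.5-fold in both directions, and the exception was SNRPE, with an interval of 0.04 to 1.05. The sign of so small a median followed the scaling. It was 0.05 under upper quartile scaling, -0.02 when all libraries were set to an equal total and -0.03 after quantile normalization, while the median of all genes moved to -0.05, -0.11 and 0.05. Under upper quartile scaling 10 genes were higher and 4 lower, in place of 13 and 2, beside 17.5% and 24.6% of all genes. At equal totals 6 were higher and 7 lower (13.8% and 28.1% of all genes), and after quantile normalization 4 and 6 (21.1% and 19.0%). Without si-CTRL replicate 1, 28 genes were higher and 5 lower, beside 26.7% and 23.2% of all genes, and the 15 calls made with all libraries were among these 33. This library was left out after its values were seen, and the shares among abundant genes were not computed for that fit. The counts without it therefore have no background of genes of like level.

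**Figure D1:**
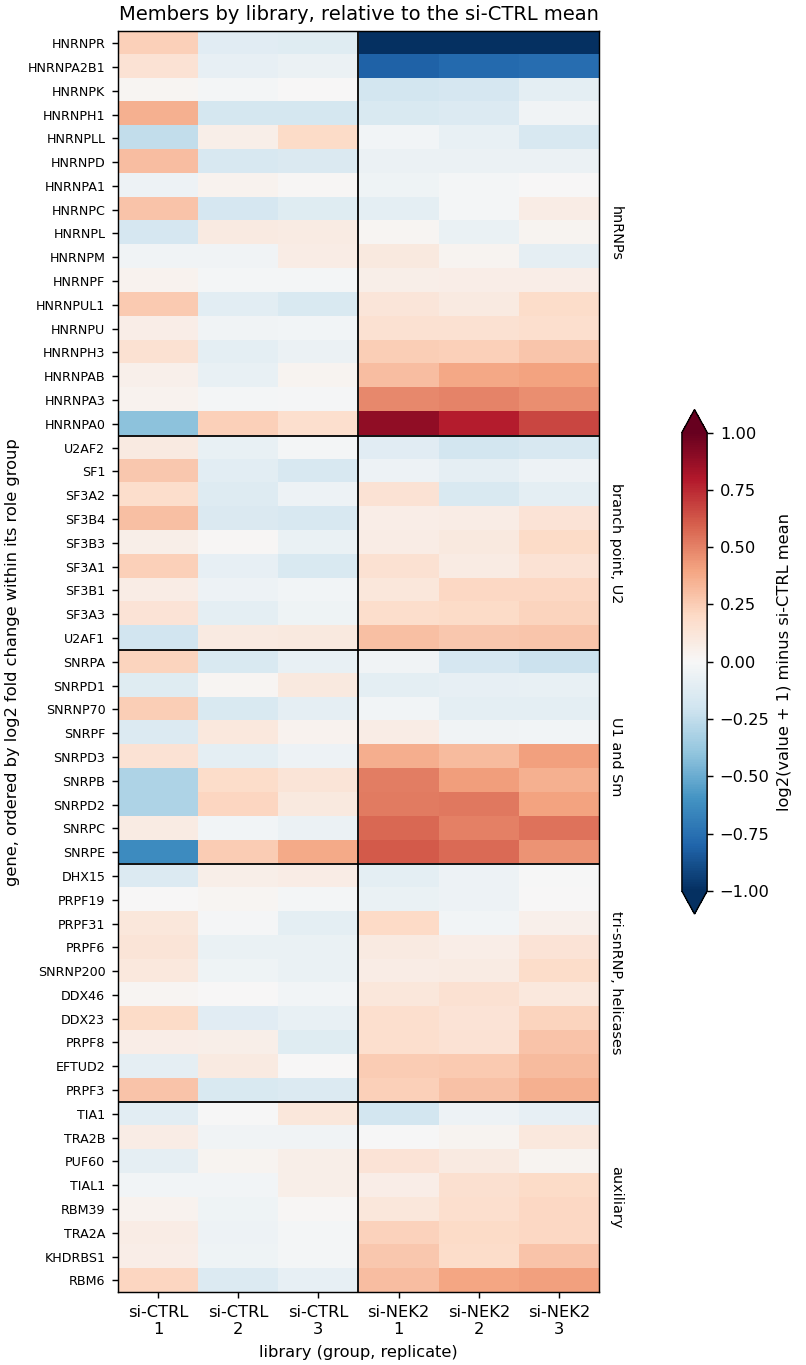
Level of each of the 53 genes in each of the 6 libraries, as log2(value + 1) minus the si-CTRL mean of that gene (colour, limited to 1 on either side), with genes in rows by role group and libraries in columns. HNRNPR and HNRNPA2B1 are low in the 3 si-NEK2 libraries, HNRNPA0 and several U1 and Sm genes are high, and si-CTRL replicate 1 differs from the other controls in many rows, most of all SNRPE.

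The largest differences were found among the hnRNPs, and they went in opposite directions. HNRNPR (chromosome 1, 23631185 to 23670857, hg19) encodes hnRNP R, an RNA-binding protein closely related to SYNCRIP that takes part in the processing and transport of messengers. Its normalized counts were 24508, 19211 and 19188 in si-CTRL replicates 1 to 3 and 8007, 7912 and 8328 in si-NEK2 replicates 1 to 3. All si-NEK2 libraries lay far below all controls. The transcript retained 38.5% of the control level, with a log2 fold change of -1.37 (SE 0.10, adjusted p = 2.36e-05 by limma), or -1.25 without si-CTRL replicate 1.

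HNRNPA2B1 (chromosome 7, 26229556 to 26241149, hg19) encodes hnRNP A2 and B1, splice forms of an abundant protein that packages nascent RNA and acts on exon choice and on RNA sorting. It was measured at 121238, 103633 and 105091 in si-CTRL replicates 1 to 3 and at 62626, 63861 and 64575 in the si-NEK2 libraries. The groups were clearly separated, with 57.9% of the control level left in si-NEK2. The log2 fold change was -0.78 (SE 0.08, adjusted p = 9.09e-05).

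HNRNPA0 (chromosome 5, 137087075 to 137090052, hg19) encodes a protein of the hnRNP A/B family that binds AU-rich elements of messengers. It moved the other way. Counts were 12118, 18967 and 18115 in si-CTRL replicates 1 to 3 and 29806, 27677 and 25614 in si-NEK2 replicates 1 to 3. Every si-NEK2 library was above every control, and the lowest value was that of si-CTRL replicate 1. The log2 fold change was 0.78 (SE 0.15, adjusted p = 0.00375). Without si-CTRL replicate 1 it was 0.577, just under the value of 0.585 that a fold of 1.5 takes on this scale, with an adjusted p of 7.24e-05.

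The 250 bases upstream of the start of these 3 genes are given because they are the members with the largest changes, and they show how the promoters of the genes that fell and of the gene that rose are built. The sequences are from RefSeq on GRCh38.p14, written 5′ to 3′ on the strand of the gene, all of which is the minus strand. They span chr1:23344285-23344534 for HNRNPR, chr7:26200747-26200996 for HNRNPA2B1 and chr5:137754364-137754613 for HNRNPA0. Capitals mark CCAAT, the box bound by NF-Y, and GGGCGG, the GC box bound by Sp1, on either strand, so that ATTGG is the reverse complement of CCAAT.
HNRNPR: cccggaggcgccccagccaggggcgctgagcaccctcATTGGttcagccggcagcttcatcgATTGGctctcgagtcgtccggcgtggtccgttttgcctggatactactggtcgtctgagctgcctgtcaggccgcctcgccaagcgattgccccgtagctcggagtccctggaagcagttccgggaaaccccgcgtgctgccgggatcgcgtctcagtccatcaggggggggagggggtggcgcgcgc
HNRNPA2B1: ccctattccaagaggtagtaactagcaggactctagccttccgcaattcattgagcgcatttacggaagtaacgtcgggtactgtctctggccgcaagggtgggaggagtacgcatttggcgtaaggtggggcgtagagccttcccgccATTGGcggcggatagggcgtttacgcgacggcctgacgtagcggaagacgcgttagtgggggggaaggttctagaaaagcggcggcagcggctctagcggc
HNRNPA0: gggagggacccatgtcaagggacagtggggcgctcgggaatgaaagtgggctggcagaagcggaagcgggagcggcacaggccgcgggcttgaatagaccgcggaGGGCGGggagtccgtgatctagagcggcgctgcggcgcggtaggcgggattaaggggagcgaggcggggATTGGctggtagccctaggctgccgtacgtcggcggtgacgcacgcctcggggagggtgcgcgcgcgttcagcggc

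HNRNPR thus holds 2 matches to CCAAT, HNRNPA2B1 holds 1, and HNRNPA0 holds 1 together with 1 match to GGGCGG. A promoter was found for 46 of the 53 genes. CCAAT was present in 45.7% of them and in 33.0% of all 27305 promoters of the table, and among the 16 hnRNP promoters in 11. The letters GGGCGG were found in 71.7% of the gene set and 42.3% of all promoters, and CCGGAAG, a site of ETS factors, in 32.6% and 8.82%. CACGTG, the E-box, was found in 15.2% and 6.49%, and TATAAA in 10.9% and 11.1%. The shares among promoters of abundant genes were not computed, so the motif shares have no background of genes of like level. Among the 3 genes printed, the CCAAT box occurs in the 2 that fell and in the 1 that rose. Of the 12 promoters found for genes that rose by adjusted p, 6 held it. A link of the box with direction was not tested, and these matches describe the sequence and not the binding of a factor.

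HNRNPA3, HNRNPAB and HNRNPH3 rose by less than 1.5-fold. HNRNPA3 encodes a close relative of hnRNP A2/B1 with the same arrangement of RNA-binding domains, and its row (chromosome 2, 178077422 to 178088685, hg19) is shared with MIR4444-1 and MIR4444-2. Its counts were 79298, 76561 and 76723 in si-CTRL replicates 1 to 3 and 108102, 109444 and 106762 in the si-NEK2 libraries. The spread within each group was small and the groups lay far apart, with a log2 fold change of 0.48 (SE 0.06, adjusted p = 0.000294). HNRNPAB, which encodes another hnRNP of the A/B family, rose by 0.37 (adjusted p = 0.00179), and HNRNPH3, a member of the hnRNP H family that binds runs of G, rose by 0.25 (adjusted p = 0.0246).

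The opposite movement of HNRNPA2B1 and HNRNPA3 was evident in every library. The ratio of their normalized counts, which is not corrected for transcript length and is compared only between libraries, was 1.42 ± 0.10 in si-CTRL and 0.589 ± 0.014 in si-NEK2 (SD, n = 3). Likewise the ratio of HNRNPR to its relative SYNCRIP went from 0.846 ± 0.014 to 0.425 ± 0.006, since SYNCRIP fell by 0.37 on the log2 scale (adjusted p = 0.0178) and HNRNPR by more. The ratio of HNRNPL to HNRNPLL was 4.12 ± 0.29 in si-CTRL and 4.37 ± 0.29 in si-NEK2, with overlap, so not every related pair moved apart. That of TIA1 to TIAL1 was 0.375 ± 0.018 and 0.315 ± 0.007. No test was run on these ratios, and the genes were chosen with earlier results of these data known.

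The other 11 hnRNP genes did not pass the test. HNRNPL, HNRNPLL, HNRNPF and HNRNPH1 are given in full, as genes chosen by name. HNRNPL, a regulator that binds CA repeats, had 8129, 9715 and 9648 normalized counts in si-CTRL and 9254, 8732 and 9299 in si-NEK2. The groups overlapped, and the 95% interval of the log2 fold change ran from -0.19 to 0.18. Its relative HNRNPLL had 1867, 2306 and 2536 in si-CTRL and 2172, 2104 and 1981 in si-NEK2, again with overlap (-0.09, adjusted p = 0.55). Without si-CTRL replicate 1 it came to -0.21 with an adjusted p of 0.0238.

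HNRNPF, which binds runs of G in RNA, was measured at 69404, 66784 and 66826 in si-CTRL and at 70305, 70700 and 70910 in si-NEK2. The libraries were separated by a very small step, with a log2 fold change of 0.06 (interval -0.07 to 0.19) that was -0.17 after quantile normalization. HNRNPH1, which belongs to the same family, was measured at 47364, 32795 and 32855 in si-CTRL and at 33314, 33711 and 36188 in si-NEK2. si-CTRL replicate 1 was far above all other libraries, and the change of -0.11 (adjusted p = 0.544) became 0.07 without it.

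HNRNPK, which binds C-rich RNA, came to -0.15 (adjusted p = 0.0708) with all 3 si-NEK2 libraries below the controls. It passed as lower in 6 of the 17 alternative settings, among them edgeR (adjusted p = 0.0468), DESeq2, the 3 scalings and the fit without si-CTRL replicate 1 (-0.14, adjusted p = 0.0285). HNRNPU, a scaffold protein of nuclear RNA and chromatin, came to 0.16 (adjusted p = 0.065), and without si-CTRL replicate 1 to 0.19 (adjusted p = 0.00405). HNRNPUL1 stood at 0.13 (adjusted p = 0.345) and at 0.26 without that control (adjusted p = 0.00123). The values of HNRNPA1, HNRNPC, HNRNPD and HNRNPM lay between -0.06 and 0.01. After quantile normalization, however, HNRNPA1 came to -0.26 and passed as lower (adjusted p = 0.012). HNRNPA1 shares its row with HNRNPA1P10 and HNRNPU shares its row with SNORA100. The median over the 17 hnRNP genes was -0.01, below 0 also under upper quartile, equal total and quantile scaling but 0.08 without si-CTRL replicate 1. On the deposited normalization their summed level in si-NEK2 was 0.988 times that of the controls.

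**Figure D2:**
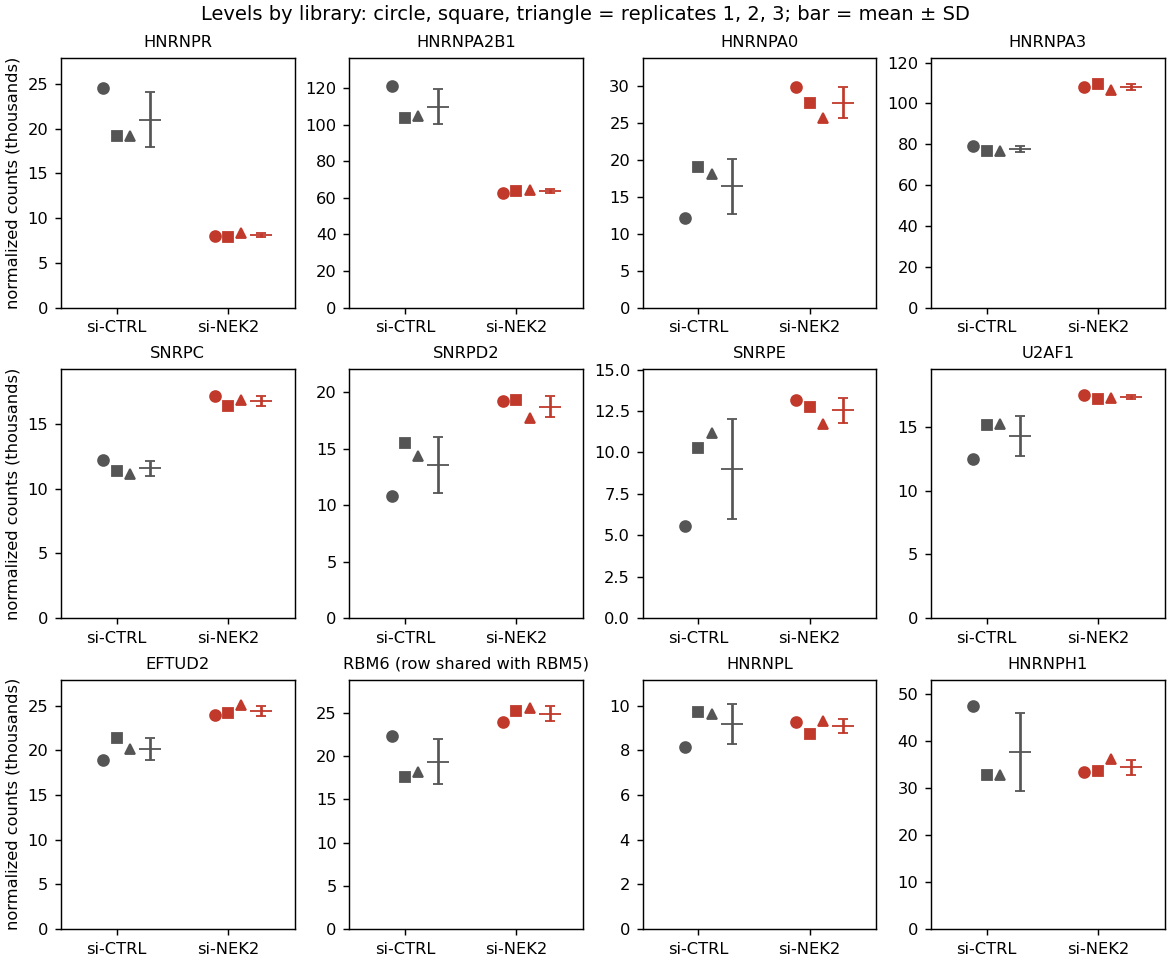
Normalized counts (in units of 1000, axis from 0) of 12 of the genes in the 3 si-CTRL libraries (grey) and the 3 si-NEK2 libraries (red), with circles, squares and triangles for replicates 1, 2 and 3 and a bar for the mean ± SD. HNRNPR and HNRNPA2B1 lie lower in si-NEK2, HNRNPA0, HNRNPA3 and SNRPC lie higher, and the values of HNRNPL and HNRNPH1 overlap between the groups.

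The genes of the U1 particle and the Sm ring were the group with the largest median, 0.36, and 4 of its 9 members (44.4%) rose while none fell, beside 21.8% higher among all genes and 35.5% among abundant ones. The median was 0.30, 0.24 and 0.22 under upper quartile, equal total and quantile scaling, with 4 higher and 0 lower, 3 and 1, and 1 and 0 calls. Without si-CTRL replicate 1 the median was 0.23, with 5 higher (55.6%) and 1 lower, beside 26.7% and 23.2% of all genes. The branch point and U2 genes then had 66.7% higher and a median of 0.19, and the tri-snRNP and helicase genes 70% and 0.17. The share among abundant genes was not computed for that fit. SNRPC (chromosome 6, 34724871 to 34741633, hg19) encodes U1-C, a protein specific to the U1 particle that supports its pairing with the start of the intron. It had 12252, 11335 and 11110 normalized counts in si-CTRL and 17189, 16414 and 16840 in si-NEK2. Every si-NEK2 library exceeded every control by a wide margin, with a log2 fold change of 0.54 (SE 0.06, adjusted p = 0.000246).

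SNRPD2 (chromosome 19, 46190713 to 46195574, hg19) encodes the Sm protein D2 and was measured at 10777, 15495 and 14319 in si-CTRL and at 19170, 19288 and 17686 in si-NEK2. si-CTRL replicate 1 was the lowest library, but the groups did not overlap. The log2 fold change was 0.48 (SE 0.12, adjusted p = 0.0124), and 0.33 without that control. SNRPB and SNRPD3, which encode the Sm proteins B and D3, rose by 0.43 (adjusted p = 0.0207) and 0.36 (adjusted p = 0.0046), and without si-CTRL replicate 1 by 0.27 and 0.44.

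SNRPE, which encodes the Sm protein E, is given in full although it was chosen after its values were seen, because 1 library set its result. It had 5559, 10249 and 11157 normalized counts in si-CTRL and 13181, 12736 and 11729 in si-NEK2. The si-NEK2 libraries were all above the controls, but si-CTRL replicate 1 was far below the rest. The log2 fold change of 0.54 had an SE of 0.22 and did not pass (adjusted p = 0.0795). Without that library it was 0.23 and passed (adjusted p = 0.0118).

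The remaining Sm and U1 genes did not follow. SNRPF and SNRPD1, for the Sm proteins F and D1, came to 0.0046 and -0.08, and SNRPA and SNRNP70, for the U1 proteins U1-A and U1-70K, to -0.14 and -0.07, all short of the test. Without si-CTRL replicate 1, SNRPD1 passed as lower (-0.14, adjusted p = 0.0244). The summed level of the 9 genes was 90750, 98870 and 99068 normalized counts in si-CTRL and 121792, 117451 and 115965 in si-NEK2, so the groups were separated. This was a ratio of 1.23, and for the 6 Sm genes alone it was 1.25, with si-CTRL replicate 1 as the lowest library at 62728. These sums use the deposited normalization and were not set to equal totals. The size of the rise of SNRPB, SNRPD2 and SNRPE moved with this library. Of the 5 genes with short transcripts, 4 belong to the Sm ring and were low in that control, but SNRPC was above both other controls. HNRNPA0, with a long transcript of 8726 bases, was also low there, at -0.61. Whether transcript length plays a part was not tested.

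**Figure D3:**
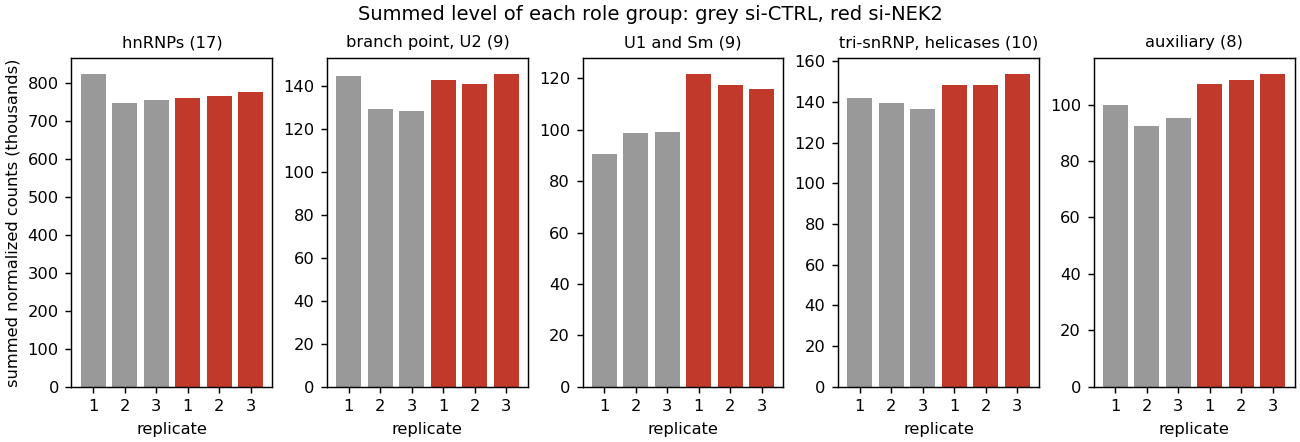
Summed normalized counts (in units of 1000, axes from 0) of each role group in the 6 libraries, with grey bars for si-CTRL and red bars for si-NEK2 replicates 1 to 3. The 3 si-NEK2 libraries lie above the 3 controls for the U1 and Sm genes (ratio 1.23), the tri-snRNP genes (1.08) and the auxiliary regulators (1.14), and overlap with them for the hnRNPs and the branch point and U2 genes. The sums use the deposited normalization and depend on it. At equal totals the median log2 fold change was 0.24 for the U1 and Sm genes, -0.01 for the tri-snRNP genes and 0.02 for the auxiliary regulators.

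Branch point and U2 genes differed little between the groups, with 1 of 9 higher (11.1%) and none lower, beside 35.5% and 18.8% of abundant genes. The median of 0.12 was 0.05 under upper quartile scaling and -0.01 under both equal total and quantile scaling. Under each of these scalings 0 genes were higher and 1 was lower. On the deposited normalization the gene that passed was U2AF1, the small subunit of U2AF that reads the AG at the end of the intron. Its row (chromosome 21, 44513066 to 44527716, hg19) is shared with the near-identical copy U2AF1L5, so the counts cannot be assigned to either. It was measured at 12497, 15148 and 15239 in si-CTRL and at 17526, 17184 and 17277 in si-NEK2. The groups did not overlap and si-CTRL replicate 1 was again the lowest, with a log2 fold change of 0.28 (SE 0.08, adjusted p = 0.0236) and of 0.19 without that control.

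U2AF2, the large subunit that binds the polypyrimidine tract, came to -0.15 (adjusted p = 0.0872), with all 3 si-NEK2 libraries below the controls. It was the gene that passed as lower under each of the 3 scalings, with -0.28 at equal totals, and in no other alternative setting. SF3B1, the U2 protein that clamps the branch point and is mutated in several cancers, came to 0.17 (adjusted p = 0.0537), and SF3A3 to 0.20 (adjusted p = 0.0577). SF3A1, SF3A2, SF3B3, SF3B4 and SF1 lay between -0.06 and 0.13. Leaving out si-CTRL replicate 1 raised the share of higher calls over all genes to 26.7%, and the share among abundant genes was not computed. In that fit 6 of the 9 genes were called higher, namely U2AF1, SF3A1, SF3A3, SF3B1, SF3B3 and SF3B4, with values of 0.15 to 0.27.

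Among the tri-snRNP and helicase genes, EFTUD2 alone (10%) passed the test with all libraries, beside 35.5% higher among abundant genes. It encodes the GTPase of the U5 particle that controls activation and disassembly of the spliceosome (chromosome 17, 42927655 to 42976993, hg19). Its counts were 18876, 21438 and 20139 in si-CTRL and 24017, 24161 and 25086 in si-NEK2. All si-NEK2 libraries were higher, by 0.28 on the log2 scale (SE 0.07, adjusted p = 0.00894).

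PRPF3, a protein of the U4/U6 particle, came to 0.30 (adjusted p = 0.0659) and PRPF8, the scaffold at the catalytic centre, to 0.20 (adjusted p = 0.0571). Both passed without si-CTRL replicate 1, at 0.44 and 0.23, together with SNRNP200, PRPF6, DDX23, DDX46 and EFTUD2. Thus 7 of the 10 genes were then higher, beside 26.7% of all genes, and the share among abundant genes was not computed for that fit. The RNA helicase DHX15, which takes spent spliceosomes apart, and the ubiquitin ligase PRPF19 came to -0.05 and -0.04, and PRPF31 to 0.07. The group median was 0.12, and it was 0.05 under upper quartile scaling but -0.01 and -0.02 under equal total and quantile scaling. Calls were 1 higher and 0 lower under upper quartile scaling, and 0 and 1 under both of the others.

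Auxiliary regulators were higher for 3 of 8 genes (37.5%) and lower for none, beside 35.5% and 18.8% of abundant genes. The median of 0.15 was 0.09, 0.02 and 0.02 under upper quartile, equal total and quantile scaling. Calls were then 2 higher and 0 lower, 0 and 1, and 0 and 0. The row of RBM6 is shared with its neighbour RBM5 (chromosome 3, 49977477 to 50156397, hg19), and both encode RNA-binding proteins that act on exon inclusion. It had 22377, 17539 and 18179 normalized counts in si-CTRL and 23895, 25246 and 25566 in si-NEK2. The groups did not overlap, although si-CTRL replicate 1 came close to the lowest si-NEK2 library. The log2 fold change was 0.37 (SE 0.09, adjusted p = 0.012) and cannot be assigned to either gene.

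KHDRBS1 (chromosome 1, 32479295 to 32526460, hg19) encodes SAM68, a signal-responsive splicing regulator. It was measured at 15660, 14483 and 14737 in si-CTRL and at 17979, 16947 and 18208 in si-NEK2. All si-NEK2 libraries were higher by a modest step of 0.24 (SE 0.06, adjusted p = 0.013).

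TRA2A rose by 0.21 (adjusted p = 0.024), while its paralogue TRA2B, which binds GAA-rich exonic enhancers in the same way, came to 0.04 (adjusted p = 0.622). The ratio of TRA2A to TRA2B was 0.396 ± 0.004 in si-CTRL and 0.445 ± 0.020 in si-NEK2 (SD, n = 3), and no test of that difference was run. TIA1 and TIAL1, which bind U-rich sequences downstream of weak exons, came to -0.11 and 0.14 and neither passed. RBM39 came to 0.16 (adjusted p = 0.0537), or 0.18 without si-CTRL replicate 1 (adjusted p = 0.01), and PUF60, a partner of U2AF2, to 0.08.

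Of the 15 calls by adjusted p, those of HNRNPR, HNRNPA2B1, HNRNPA0, HNRNPA3, HNRNPAB and SNRPC were made under each of the 17 alternative settings. The least stable were HNRNPH3 and TRA2A, called in 7 of the 17, followed by U2AF1 in 10 and SNRPB in 12. None of the 15 genes changed direction in any of these settings. Equal total scaling ended 7 calls (HNRNPH3, U2AF1, SNRPB, EFTUD2, KHDRBS1, TRA2A and RBM6), quantile normalization ended these and those of SNRPD2 and SNRPD3, and upper quartile scaling ended those of HNRNPH3, U2AF1 and TRA2A. HNRNPA3 and HNRNPAB passed after quantile normalization too, each at 0.24. Leaving out si-NEK2 replicate 2 ended the calls of HNRNPH3, U2AF1, SNRPB, SNRPD2, TRA2A and RBM6, and leaving out si-NEK2 replicate 1 or 3 those of HNRNPH3, U2AF1, KHDRBS1 and TRA2A, with SNRPB also lost without replicate 1. HNRNPH3 and TRA2A were further lost without si-CTRL replicate 2 or 3. The highest adjusted p of a call lost in this way, by leaving out a library, was between 0.0512 (RBM6) and 0.0838 (TRA2A), whereas over all 17 settings it reached 0.361 for HNRNPH3, 0.32 for TRA2A, 0.23 for U2AF1, 0.219 for KHDRBS1 and 0.115 for EFTUD2. SNRPE passed the thresholds of the study without si-CTRL replicate 2 (0.67) or replicate 3 (0.73), and SNRPD2 did so without replicate 2 (0.59). The count test of edgeR on the recovered reads called 16 of the 53 genes and that of DESeq2 called 17.

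**Figure D4:**
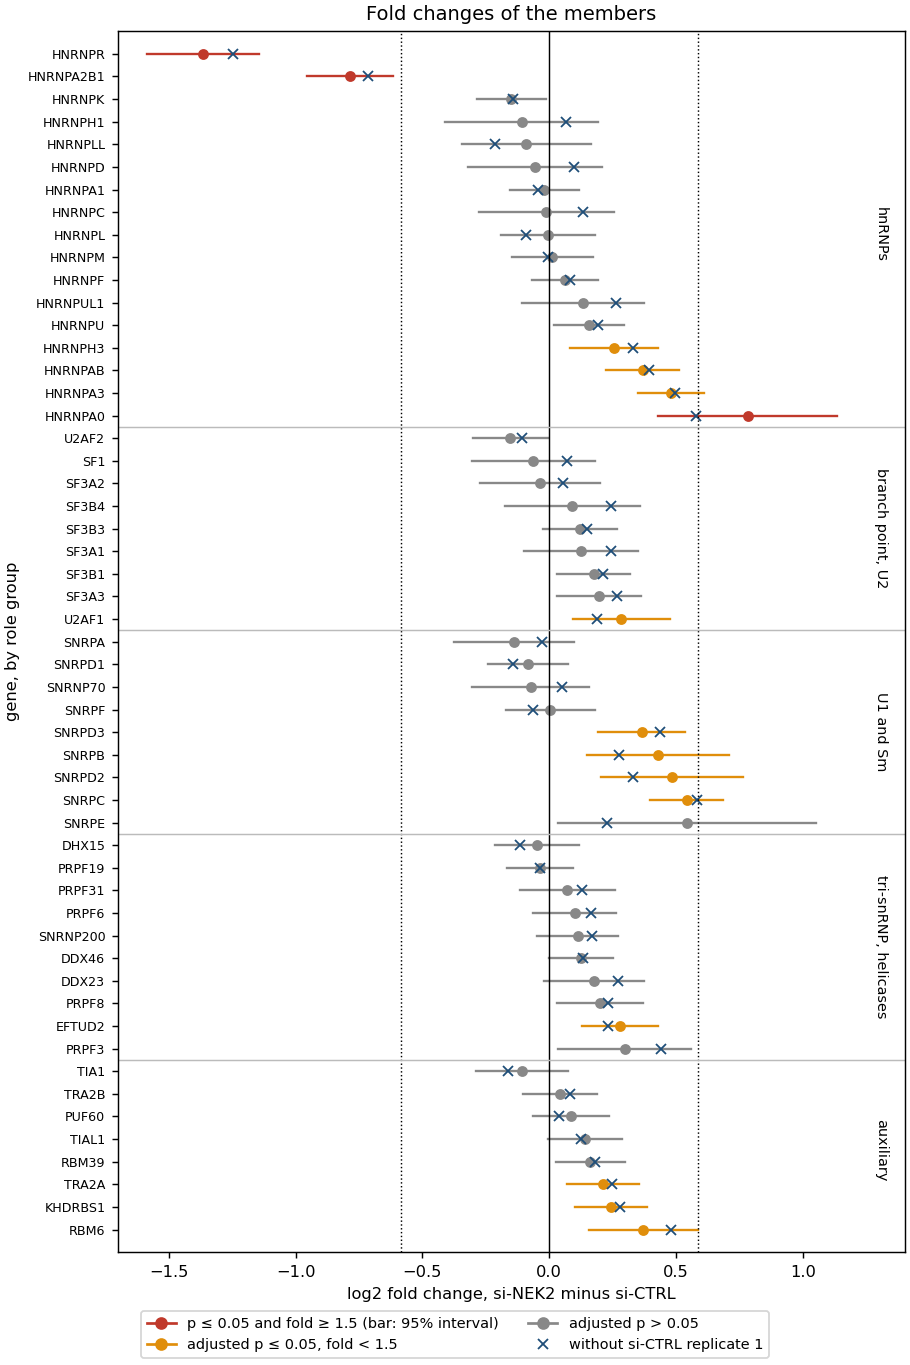
Log2 fold change (si-NEK2 minus si-CTRL) of each of the 53 genes with its 95% interval, by role group, in red for genes past the thresholds of the study, orange for an adjusted p of at most 0.05 with a smaller fold and grey for the rest, and with a cross for the value without si-CTRL replicate 1. Dotted lines mark a fold of 1.5. HNRNPR at -1.37 and HNRNPA2B1 at -0.78 lie left of the lines, HNRNPA0 at 0.78 lies right of them, and the other points lie between the lines.

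The other proteins of the same machinery were examined in 8 lists. Over these 87 further spliceosome and hnRNP-related genes, 37 were higher and 7 lower by adjusted p (42.5% and 8.05%), with a median of 0.20. Among genes of all levels 21.8% and 21.3% were called, and among abundant genes 35.5% and 18.8%. The split was 27 and 10 under upper quartile scaling (17.5% and 24.6% of all genes), 16 and 13 at equal totals (13.8% and 28.1%) and 23 and 14 after quantile normalization (21.1% and 19.0%). Without si-CTRL replicate 1 it was 54 and 8, beside 26.7% and 23.2% of all genes, with no share computed among abundant genes. TAF15, SNRNP25, LSM2 and HNRNPUL2 passed the thresholds of the study, and the further genes of these lists are named after their values were seen. TAF15, a nuclear RNA-binding protein, went from 13131, 13106 and 13615 to 23592, 22897 and 23227. The groups lay far apart, with a log2 fold change of 0.81 (SE 0.06, adjusted p = 2.14e-05). Its relative EWSR1 fell by 0.53 (adjusted p = 0.000676), so that the ratio of TAF15 to EWSR1 went from 0.596 ± 0.046 to 1.505 ± 0.085 (SD, n = 3).

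SNRNP25, a protein of the minor spliceosome that removes a rare class of introns, went from 1856, 2542 and 2572 to 4097, 3948 and 3929. This was 0.80 on the log2 scale (SE 0.12, adjusted p = 0.000955) and 0.64 without si-CTRL replicate 1. LSM2, part of the LSm ring that holds the U6 RNA, went from 3407, 4257 and 4598 to 6630, 6355 and 6014. The groups did not overlap in either case. The change of LSM2 was 0.64 (SE 0.11, adjusted p = 0.00163), and 0.52 without si-CTRL replicate 1, which is under 1.5-fold. The row of HNRNPUL2 is shared with BSCL2 and their read-through transcript, and it went from 619, 958 and 934 to 1224, 1297 and 1338. Its change was 0.65 (SE 0.16, adjusted p = 0.01), or 0.44 without si-CTRL replicate 1.

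The counts in the single lists are to be read against the 35.5% of abundant genes that were higher. Among the LSm genes 3 of 8 were higher and LSM8, the subunit that sets the nuclear ring apart from the cytoplasmic one, fell by 0.43 (adjusted p = 0.000955). Of 13 further U1, U2 and Sm genes 6 rose and none fell, including SF3B6 by 0.52 and PHF5A by 0.51, both proteins of the SF3B complex. Of 15 Prp19 and activated complex genes 7 rose and none fell, with RBM22 at 0.54. Of 12 genes of the catalytic step and release 5 rose and none fell, with SLU7 at 0.39. The other tri-snRNP genes were mixed, with 4 of 12 higher and 2 lower, the latter being SART1 (-0.45) and SNRNP27 (-0.37).

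Related poly(C)-binding proteins also moved apart, as PCBP1 fell by 0.48 (adjusted p = 0.000452) and PCBP2, whose row is shared with PCBP2-OT1 and PRR13, rose by 0.54 (adjusted p = 0.000215). Of the 14 further hnRNP and related genes 7 were higher and 3 lower. The exon junction complex had 2 of 5 genes higher, EIF4A3 and MAGOH, and none lower, with a median of -0.04. The minor spliceosome had 3 of 8 higher and 1 lower, PDCD7 (-0.32), with a median of 0.04.

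**Figure D5:**
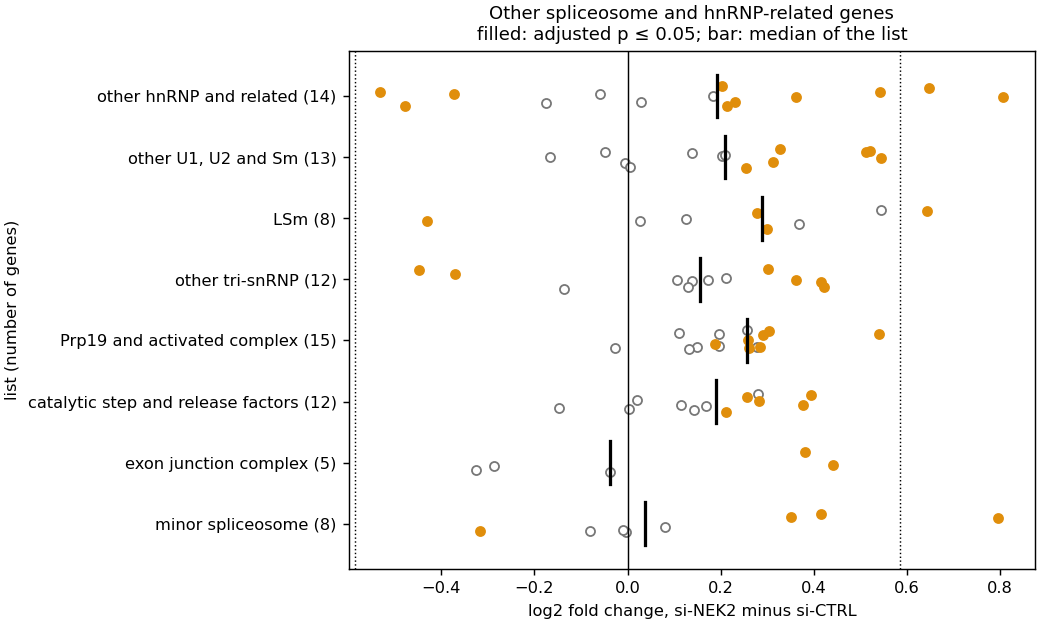
Log2 fold change (si-NEK2 minus si-CTRL) of 87 further spliceosome and hnRNP-related genes in 8 lists, 1 point per gene, filled where the adjusted p was at most 0.05, with a bar for the median of each list and dotted lines at a fold of 1.5. TAF15 and SNRNP25 lie furthest to the right at 0.81 and 0.80, and EWSR1 lies furthest to the left at -0.53.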

How the data were processed

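The deposited table holds 1 normalized signal per gene and library, which the authors made by dividing the reads assigned to a gene by a DESeq2 size factor, on FAST DB annotation with hg19 coordinates. The submitters' processing notes name FastQC, Picard, SAMtools, STAR 2.4.0 and DESeq2. The read counter and its strand setting are not given in the sources used here, the kit was stranded, and the study gives the read format as both single-end and paired-end. All values (100%) were whole multiples of the worth of 1 read, within 0.1 read, so reads could be recovered.

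Libraries were grouped by title. Genes with a mean of at least 10 were tested with limma 3.58.1 (R 4.3.3) on log2(value + 1) with an intensity trend, two-sided, without covariates. A fold on this scale understates the change of low genes. The pseudocount was also set to 0.1 or 5, the filter was removed or raised to 50, the size factors were replaced by upper quartile scaling, by an equal total or by quantile normalization, the trend was dropped, the replicate block was added, the libraries were left out singly, and edgeR 4.0.16 and DESeq2 1.42.0 were run on the recovered reads. Scripts were tested on simulated data. Transcript lengths came from GENCODE v29, and promoters and their coordinates from RefSeq.

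The 54 genes, their role groups and the companion lists were chosen with earlier results of these data known. Values per library are given for genes past the thresholds of the study, for the 2 largest rises and falls by adjusted p in each role group, for 5 genes chosen by name (HNRNPL, HNRNPLL, RBM6, HNRNPF, HNRNPH1), for companion genes past the thresholds (at most 4 a list) and for NEK2.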

Additional observations from a re-analysis of the deposited data

How the results depend on the processing

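The count of genes past the thresholds of the study was 3 in all settings other than leaving out a control, which gave 2 to 5, the extremes coming from si-CTRL replicates 1 and 2. The 15 calls by adjusted p ranged from 9 (without si-NEK2 replicate 2) to 33 (without si-CTRL replicate 1) when a library was left out, and from 10 to 17 otherwise, with 11 without the trend, which ended the calls of HNRNPH3, U2AF1, SNRPB and TRA2A. The 13 higher calls ranged from 7 to 28 with a library left out (8 without si-NEK2 replicate 1), and were 6 under equal total scaling and 4 after quantile normalization. The median of 0.11 ranged from 0.0662 to 0.1483 with a library left out, and was 0.047 under upper quartile scaling, -0.0153 at equal totals and -0.0329 after quantile normalization. The 44 companion calls ranged from 30 to 62 with a library left out and were 29 at equal totals. The sign changed in at least 1 setting for 22 of the 53 genes, none of them called with all libraries, and the cause was not tested. Some genes that passed without si-CTRL replicate 1 are among the 22, such as HNRNPU, HNRNPUL1, SF3A1 and HNRNPLL.

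At equal totals the log2 fold changes that changed sign were HNRNPF -0.0661, HNRNPM -0.116, SF3A1 -0.0031, SF3B3 -0.0074, SF3B4 -0.0369, SNRPF -0.1236, SNRNP200 -0.0153, PRPF6 -0.0286, PRPF31 -0.0568, DDX46 -0.0049, TRA2B -0.0854 and PUF60 -0.044. After quantile normalization they were HNRNPF -0.165, HNRNPM -0.1141, HNRNPU -0.0831, HNRNPUL1 -0.0148, SF3A1 -0.0139, SF3B3 -0.0132, SF3B4 -0.0318, SNRPF -0.1073, SNRNP200 -0.0145, PRPF6 -0.059, PRPF31 -0.0329, DDX46 -0.0336, TRA2B -0.0897 and PUF60 -0.0418. Upper quartile scaling gave HNRNPF -0.0038, HNRNPM -0.0537, SNRPF -0.0613 and TRA2B -0.0231, and SNRPF was -0.0089 with edgeR and -0.0101 with DESeq2. With 1 library left out, the range of HNRNPC was from -0.0954 to 0.1309, HNRNPD from -0.1375 to 0.0971, HNRNPH1 from -0.1983 to 0.0668, HNRNPL from -0.0908 to 0.0378, HNRNPLL from -0.2145 to 0.0063, HNRNPM from -0.0319 to 0.0647, SF1 from -0.1451 to 0.0703, SF3A2 from -0.1258 to 0.0535, SNRNP70 from -0.1503 to 0.0503 and SNRPF from -0.065 to 0.0566.

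The labels do not say whether the replicate numbers pair the libraries. Deviations from the group mean correlated at -0.15 to 0.05 between same-numbered libraries and at -0.12 to 0.18 between the others. This cannot settle pairing, because si-CTRL replicate 1 stood apart and so weighs on the deviations of all controls. With the replicate block 13 genes were called in place of 15, 11 of them higher, without HNRNPH3 and TRA2A. The lowest read count of a member in a library was 1494, and the spread of 3 libraries set a median half-width of 0.17 for the 95% interval of a log2 fold change.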
